A study of Rattus norvegicus with 24 samples.

Results

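Cldn5, Pecam1, Cdh5, Kdr, Flt1, Tek, Tie1, Mfsd2a, Slc2a1 and Abcb1a are 10 genes of the endothelial cells that line brain vessels and form the blood-brain barrier. They were taken by symbol, by a rule that uses no measured level, though earlier results of these data were known. All 10 were found among the 17420 genes measured. RNA was sequenced from the hippocampus and neocortex of 24 Sprague-Dawley rat fetuses at embryonic day 18, in 4 maternal treatment groups of 6 pups, each group being 3 pups from each of 2 litters. Saline dams were injected on gestational day 17, and MAM dams received methylazoxymethanol acetate, a DNA-alkylating agent, at 22 mg/kg on that day. Poly I:C dams received polyinosine:cytosine, a synthetic double-stranded RNA that mimics viral infection, at 7.5 mg/kg on gestational day 17. Tissue was taken 18 hours after injection. Low Protein dams ate a diet with 6.1% protein from gestational day 11 to 18, and no injection is described for them. Control rats, here taken to be the Saline dams as the only control group, ate an isocaloric diet with 20.3% protein on the same days, so Low Protein and Saline may differ in injection as well as diet. The diet of the MAM and Poly I:C dams is not given in the sources used here. The treatment was given to the dam, so that 3 pups of a litter shared 1 treated animal, and both sexes were combined.

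Endothelial cells enter the embryonic brain from vessels around it, guided by VEGF from neural progenitors. They then acquire barrier properties: tight junctions that seal the space between cells, low vesicle transport, transporters that import nutrients, and pumps that return lipophilic compounds to the blood. Angiopoietin signalling through Tie receptors steadies the new vessels, and Wnt ligands from neural cells drive the barrier programme.

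Promoters of a junction gene, a VEGF receptor, a Tie receptor and the glucose transporter are shown as examples. RefSeq windows (GRCr8 build) of 300 bases around an annotated start were matched by symbol for 6 of 10 members. Capitals mark GGAAG, a string that ETS factors of endothelial cells bind, and ACGTG, the core of the hypoxia response element, each searched on both strands.
Cldn5, chr11:95718549-95718848, minus strand: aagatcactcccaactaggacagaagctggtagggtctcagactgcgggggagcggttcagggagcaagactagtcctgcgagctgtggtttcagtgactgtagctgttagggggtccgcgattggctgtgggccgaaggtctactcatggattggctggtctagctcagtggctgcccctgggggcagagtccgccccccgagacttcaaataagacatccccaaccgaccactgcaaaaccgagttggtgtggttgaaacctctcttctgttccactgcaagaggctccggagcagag
Flt1, chr12:12333180-12333479, plus strand: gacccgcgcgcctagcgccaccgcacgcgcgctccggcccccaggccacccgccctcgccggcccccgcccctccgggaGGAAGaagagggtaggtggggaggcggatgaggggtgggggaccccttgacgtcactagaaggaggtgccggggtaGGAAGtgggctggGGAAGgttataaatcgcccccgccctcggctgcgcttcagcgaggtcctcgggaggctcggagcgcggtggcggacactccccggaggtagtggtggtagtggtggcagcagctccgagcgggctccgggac
Tie1, chr5:137304932-137305231, minus strand: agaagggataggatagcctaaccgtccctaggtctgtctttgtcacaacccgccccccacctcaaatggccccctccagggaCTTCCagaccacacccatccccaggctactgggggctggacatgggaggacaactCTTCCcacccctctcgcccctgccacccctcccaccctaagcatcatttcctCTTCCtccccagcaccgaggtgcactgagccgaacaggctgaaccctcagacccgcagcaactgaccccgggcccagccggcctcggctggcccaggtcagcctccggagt
Slc2a1, chr5:138002272-138002571, plus strand: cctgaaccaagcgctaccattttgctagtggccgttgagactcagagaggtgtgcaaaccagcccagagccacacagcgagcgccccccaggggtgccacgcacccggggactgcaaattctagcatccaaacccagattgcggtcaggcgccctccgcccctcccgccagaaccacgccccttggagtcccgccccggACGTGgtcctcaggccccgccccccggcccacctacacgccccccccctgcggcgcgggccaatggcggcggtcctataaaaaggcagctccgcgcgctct
Flt1 and Tie1 each held 3 copies of GGAAG and no ACGTG, Slc2a1 held 1 ACGTG and no GGAAG, and Cldn5 held neither. Kdr and Abcb1a, which were matched but are not shown, each held 1 GGAAG and no ACGTG. The Flt1 window lay downstream of the start of the gene's span, and the Abcb1a window lay well inside the gene. Neither window therefore covers the gene's outermost start. Of all 33469 promoter windows, 70.1% held GGAAG and 19.3% held ACGTG, so a match to GGAAG was common. These matches describe letters and no binding was measured. Other strings that ETS factors bind were not searched, so a window without GGAAG may still hold an ETS site.

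Values are TPM as deposited, with an offset of 1e-04, and changes are on the log2 scale. Part of the low products of value and genomic span fell near regular steps, which gave an approximate depth of 24300000 to 63100000 reads a pup. At these depths the estimated median reads a pup ranged from 420.5 for Abcb1a to 3769.5 for Slc2a1. The TPM of one gene cannot be set against that of another here, because the values appear to be scaled by genomic span, introns included. Markers of cortical and hippocampal tissue had summed levels between 439 and 570 TPM in the pups. Tubb3 alone had a mean of 260 TPM in Saline, so the sum does not show that each marker was present.

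No difference from the saline pups was detected for any of the 10 genes under any treatment. In the limma fit, 0 of 10 members passed an unadjusted p of 0.05 in the Low Protein, MAM or Poly I:C comparison, against 7.24%, 9.83% and 9.36% of the 12516 genes tested. After Benjamini-Hochberg adjustment, 0%, 0.016% and 0% of all genes and no member passed. Each comparison had 3 members above and 7 below the saline mean, and the median log2 change of the members was -0.04 on the low protein diet, -0.04 after MAM and -0.05 after Poly I:C. The medians over all genes tested were -0.01, -0.07 and 0.00. Of these genes, 45.4%, 29% and 51.3% were above the saline mean. With median-of-ratios scaling the members' split became 5 above and 5 below on the low protein diet and 6 above and 4 below after MAM. With upper-quartile scaling it was 4 above and 6 below after MAM. The 3 comparisons share the saline pups and are not independent. The 10 members varied together from pup to pup, so they are not independent either. In bulk tissue, fewer endothelial cells and less RNA per cell cannot be told apart.

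Claudin-5, from Cldn5, is the main strand-forming protein of endothelial tight junctions. Its level was 43.2 to 61.7 TPM in saline pups (median 51.6), 40.3 to 67.6 after Poly I:C (median 50.3), 48.9 to 62.9 after MAM (median 56.8) and 36.2 to 77 on the low protein diet (median 51.6). All 4 groups overlapped, and Low Protein held both the lowest and the highest pup. After Poly I:C the Cldn5 mean was 44.4 TPM in litter 1 and 60.4 in litter 2. The log2 change from saline was 0.03 on the low protein diet (SE 0.15, adjusted p = 0.988 by limma), 0.13 after MAM (adjusted p = 0.743) and -0.01 after Poly I:C (adjusted p = 0.991).

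VE-cadherin, from Cdh5, holds endothelial cells together at adherens junctions, and had the widest spread of the 10 genes. Its level was 0.276 to 0.403 TPM in saline pups (median 0.344), 0.183 to 0.564 after Poly I:C (median 0.419), 0.225 to 0.414 after MAM (median 0.326) and 0.166 to 0.671 on the low protein diet (median 0.339). The highest pup was 4.03 times the lowest, and the saline pups lay inside the range of the Low Protein and the Poly I:C pups. The log2 change in Poly I:C pups was 0.20 (95% interval -0.35 to 0.75, exact permutation p = 0.472, 6 against 6 pups). The intervals in Low Protein (-0.55 to 0.56) and MAM (-0.63 to 0.48) were as wide by construction, because the fit pools the spread of all groups. The SD of the log2 values was 0.204 in Saline, 0.292 in MAM, 0.595 in Poly I:C and 0.697 in Low Protein pups.

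Pecam1 encodes an adhesion molecule at endothelial contacts that leukocytes also carry. It ran from 0.14 to 0.17 TPM in saline pups (median 0.16), 0.119 to 0.183 after Poly I:C (median 0.15), 0.131 to 0.207 after MAM (median 0.165) and 0.106 to 0.2 on the low protein diet (median 0.167). The saline pups were tightly grouped and fell within the range of each treated group.

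Kdr encodes VEGFR2, the receptor that carries most VEGF signalling. Its level was 0.754 to 0.908 TPM in saline pups (median 0.791), 0.431 to 0.956 after Poly I:C (median 0.784), 0.517 to 0.934 after MAM (median 0.721) and 0.452 to 1.11 on the low protein diet (median 0.785). MAM pups had the lowest mean, at 0.701 ± 0.151 TPM against 0.802 ± 0.0557 in Saline (SD, n = 6 each). The log2 change was -0.22 (SE 0.20, 95% interval -0.62 to 0.18, exact permutation p = 0.152). No other member had a lower limma p in MAM pups, and that unadjusted p was 0.273. In a limma fit of only the 12 MAM and Saline pups, the unadjusted p for Kdr was 0.0984 (adjusted p = 0.426).

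Flt1 encodes VEGFR1, which binds VEGF tightly and limits its action. It ran from 0.111 to 0.173 TPM in saline pups (median 0.125), 0.0852 to 0.141 after Poly I:C (median 0.125), 0.101 to 0.161 after MAM (median 0.124) and 0.082 to 0.167 on the low protein diet (median 0.121). The 4 medians lay close together, and the log2 changes were -0.12 on the low protein diet, -0.05 after MAM and -0.15 after Poly I:C.

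Tek encodes Tie2, the angiopoietin receptor, and Tie1 encodes its partner receptor. Tek ran from 0.0754 to 0.0959 TPM in saline pups, 0.0544 to 0.116 after Poly I:C, 0.0638 to 0.09 after MAM and 0.0589 to 0.136 on the low protein diet. Tie1 ran from 0.857 to 1.17 TPM in saline pups, 0.622 to 1.71 after Poly I:C, 0.797 to 1.17 after MAM and 0.609 to 1.67 on the low protein diet. Both genes had their widest ranges in Low Protein and Poly I:C pups, and no group stood clear of another. The Poly I:C log2 changes were 0.07 for Tek (SE 0.18) and 0.10 for Tie1 (SE 0.21). These SEs treat pups as replicates, and the Tie1 mean after Poly I:C was 0.89 TPM in litter 1 and 1.43 in litter 2.

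Slc2a1 encodes GLUT1, which carries glucose across the barrier. Its level was 2.7 to 3.25 TPM in saline pups (median 3.02), 1.94 to 3.29 after Poly I:C (median 2.9), 2.69 to 3.92 after MAM (median 3.1) and 1.97 to 3.25 on the low protein diet (median 2.94). Low Protein pups had a mean of 2.69 ± 0.575 TPM against 3.03 ± 0.204 in Saline (SD, n = 6 each), a log2 change of -0.20 (95% interval -0.48 to 0.08, exact permutation p = 0.258). Both Low Protein pups numbered 3 were near 1.97 TPM, and the other 4 were between 2.81 and 3.25. Of the comparisons between treatments, Low Protein against MAM came closest to the threshold, with a log2 difference of -0.27 (SE 0.13, limma unadjusted p = 0.0544, adjusted p = 0.575).

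Mfsd2a encodes the lipid transporter that restrains vesicle transport, and was the steadiest of the 10. It ran from 1.11 to 1.35 TPM in saline pups (median 1.27), 1.12 to 1.35 after Poly I:C (median 1.27), 1.16 to 1.39 after MAM (median 1.25) and 0.94 to 1.3 on the low protein diet (median 1.25). Its 95% intervals were the narrowest, at -0.22 to 0.08 on the low protein diet, -0.15 to 0.15 after MAM and -0.16 to 0.14 after Poly I:C. Abcb1a encodes the efflux pump P-glycoprotein. It ran from 0.0436 to 0.063 TPM in saline pups, 0.0338 to 0.0705 after Poly I:C, 0.0414 to 0.0606 after MAM and 0.0397 to 0.069 on the low protein diet. Its log2 changes were -0.10, -0.18 and -0.17 (SE 0.16), within overlapping groups. Abcb1b, a close copy, is counted as a gene of its own and could share reads with Abcb1a.

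**Figure D1:**
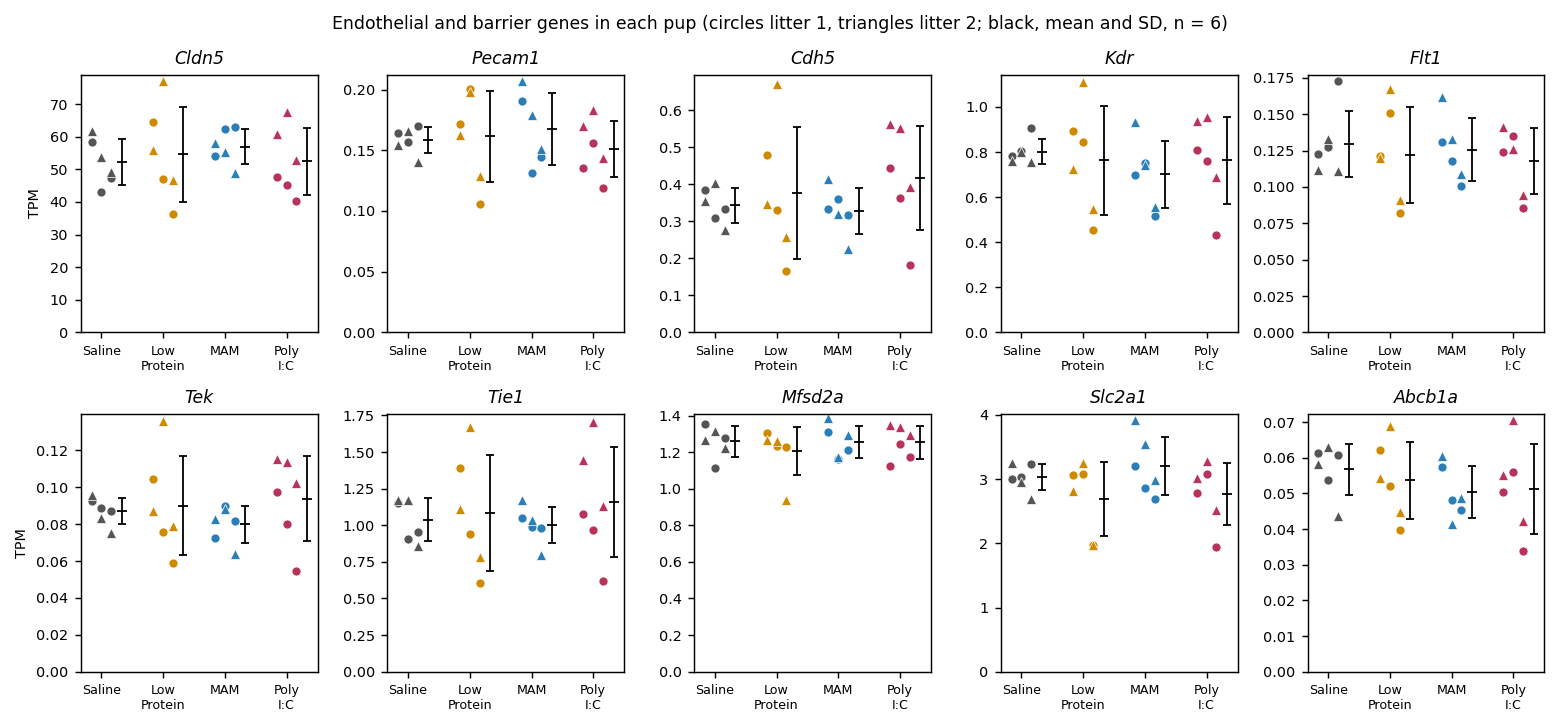
TPM (linear axis from 0) of the 10 genes in each pup, by maternal treatment, with circles for litter 1, triangles for litter 2, pups 1 to 3 from left to right, and black bars for the mean and SD (n = 6). All treated groups overlap the saline pups, whose points are grouped more tightly for Kdr (0.754 to 0.908) than those of Low Protein pups (0.452 to 1.11).

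**Figure D2:**
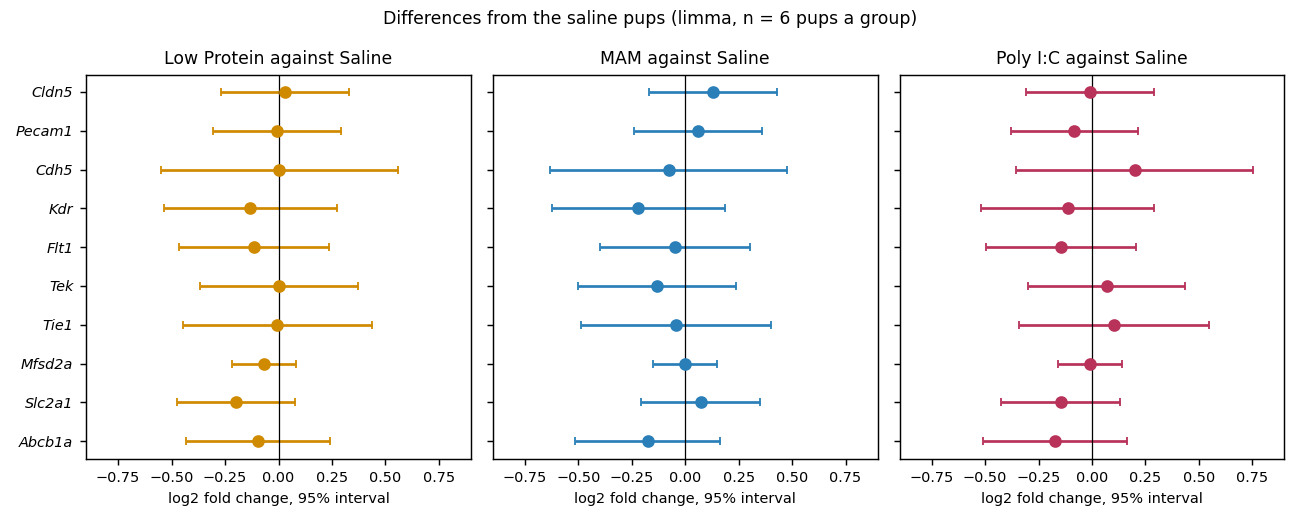
Log2 fold change from the saline pups (points) with 95% intervals (bars) for each gene and treatment, from limma. Every interval crosses 0, with the widest for Cdh5 and the narrowest for Mfsd2a.

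The comparisons between treatments gave no member either. With 8.8% of all genes past an unadjusted p of 0.05 in Low Protein against MAM, 4.85% in Low Protein against Poly I:C and 18.8% in MAM against Poly I:C, 0 of 10 members passed in each. The F test over the 4 groups passed 13.2% of all genes and 0 of 10 members, with Slc2a1 lowest (unadjusted p = 0.18).

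The 10 genes instead varied together from pup to pup when the 4 groups were pooled. Low Protein and Poly I:C pups weigh most in this, as their mean level had an SD of 0.382 and 0.324, against 0.11 in Saline. Correlations within single groups were not computed, so the pattern is not shown for the saline pups alone. After the group means were removed, the 45 pairs had a median Pearson correlation of 0.757 over 24 pups (range 0.25 to 0.967), and 39 pairs were above 0.5. Cdh5 and Tie1 were closest (r = 0.967), and Tek and Mfsd2a least alike (r = 0.25). All genes of a pup share its dissection and library, and these correlations are descriptions. Cldn5, Cdh5, Tek and Tie1 had r of at least 0.874 with one another, and Pecam1, Kdr, Flt1 and Slc2a1 at least 0.831. These sets were picked from the same correlations and are not separate. Pairs across them ran from 0.43 (Cldn5 with Flt1) to 0.908 (Cdh5 with Kdr). Mfsd2a, with r of 0.507 against the mean of the rest, stood most apart.

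**Figure D3:**
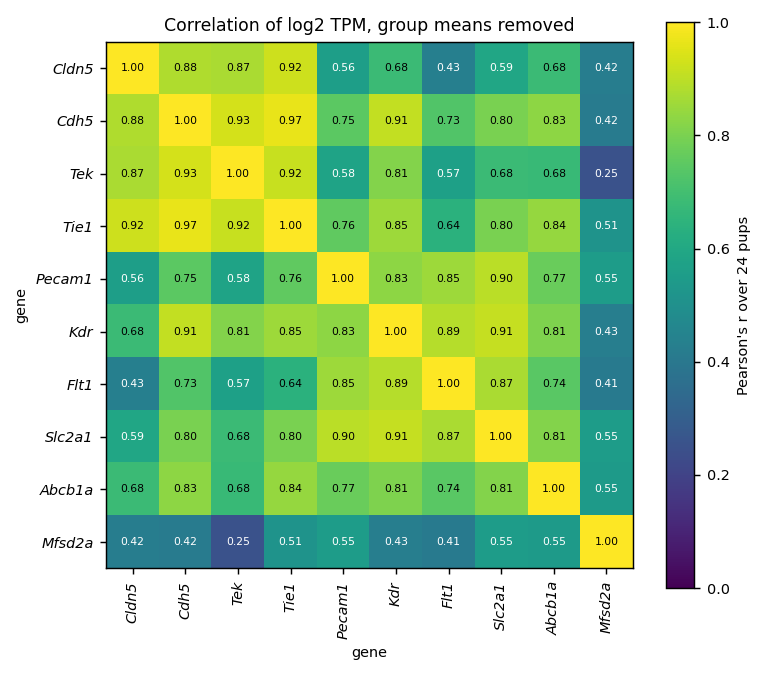
Pearson correlation of log2 TPM between the 10 genes over 24 pups with group means removed, from 0 (dark) to 1 (yellow). Mfsd2a has the lowest values in the grid, and Cdh5 with Tie1 the highest, at 0.967.

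The spread was larger in 2 of the groups. The mean log2 level of the 10 genes relative to saline had an SD of 0.11 over saline pups, 0.159 after MAM, 0.324 after Poly I:C and 0.382 on the low protein diet (n = 6 each), and its group means were 0, -0.04, -0.03 and -0.06. The lowest pups were Low Protein 1-3 at -0.61 and Poly I:C 1-3 at -0.60, where 1-3 means litter 1, pup 3. The highest was Low Protein 2-2 at 0.45. In Poly I:C, litter 2 was above litter 1 at each pup number, at 0.24, 0.32 and -0.08 against -0.02, -0.03 and -0.60. Neither the differences in spread nor this litter difference was tested.

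In 7 of 8 litters the pup numbered 3 had the lowest mean level, the exception being Saline litter 1. The pattern was noticed in the data. Nothing in the labels says what the pup number stands for. Of all 12516 genes, 7.72% were lowest in that pup in at least 7 litters. Of the 10 members, 9 were lowest in it in at least 6 litters, against 17.6% of all genes. The members varied together, so these 9 are not separate observations. The mean log2 difference from the other pups of the litter was -0.64 for Cdh5 (SD 0.44 over 8 litters), -0.50 for Tie1 (SD 0.31), -0.49 for Kdr (SD 0.39) and -0.07 for Mfsd2a (SD 0.15). Estimated depth had a median of 42900000 reads in pups numbered 3 and 35300000 in the others. With group means removed, the mean level of the members had a correlation of 0.19 with log2 depth over 24 pups. The part of depth in the pup 3 pattern was not tested. Without these 8 pups, 0 of 10 members passed in any comparison with saline, and Kdr in Low Protein pups was 0.17 (adjusted p = 0.653 by limma) in place of -0.13. Slc2a1 in Low Protein pups was then -0.01 in place of -0.20.

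**Figure D4:**
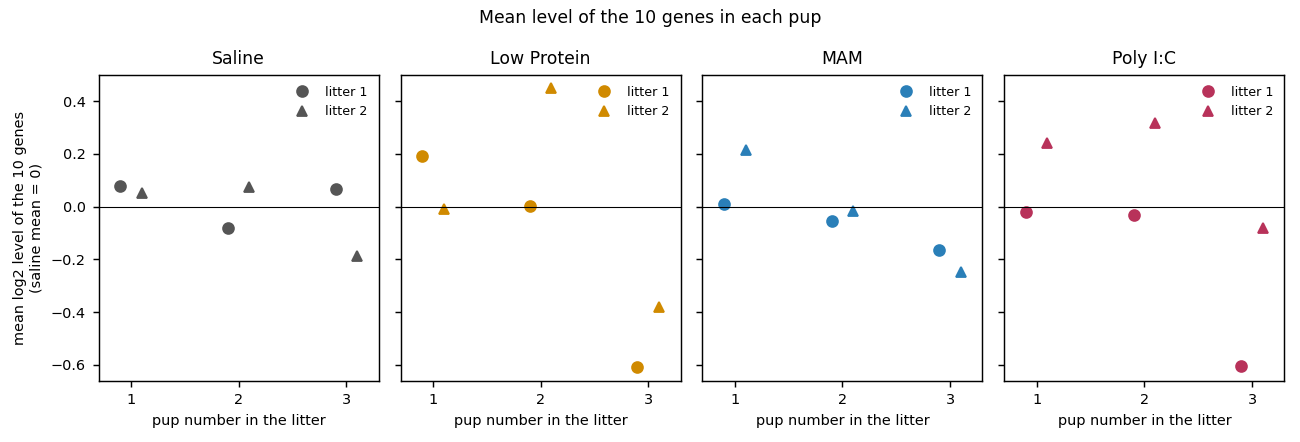
Mean log2 TPM of the 10 genes in each pup relative to the saline mean, by pup number within the litter, with circles for litter 1 and triangles for litter 2. Pup 3 is lowest in 7 of 8 litters, down to -0.61 in Low Protein litter 1.

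The 10 genes most like the mean of the members were taken from 12506 others. Col4a1 and Nid2 encode basement membrane proteins, and Col18a1 the precursor of endostatin. Vwf, Nos3 and Eng encode endothelial proteins, Epas1 a hypoxia-regulated transcription factor, and Pdgfrb the receptor that marks pericytes. Lrrc32 and Emilin1 completed the 10. Their correlations ran from 0.947 to 0.975 over 24 pups, against a median of 0.145 and an upper quartile of 0.46 over all others, and 76 genes were above 0.9. Summed levels of other lists were correlated with the members to very different degrees, with r of 0.966 for the other junction genes, 0.893 for other barrier transporters, 0.882 for endothelial transcription factors, 0.876 for other pan-endothelial genes, 0.703 for Wnt and Norrin signalling, 0.497 for endothelial activation, 0.471 for angiopoietins and 0.227 for VEGF ligands and co-receptors. It was 0.879 for meninges, 0.843 for pericytes and smooth muscle, 0.795 for microglia and 0.657 for choroid plexus. It was 0.372 for blood, 0.114 for hypoxia-induced genes and 0.0994 for cortical and hippocampal tissue. These sums add TPM that appear to be scaled by genomic span, so a gene with high values can stand for its list. In Saline, Hbb had a mean of 642 TPM, and the blood list a median sum of 690 TPM. Meningeal genes summed to between 5.09 and 40.6 TPM in Low Protein pups and 10.1 to 16.6 in Saline, and none of the 8 genes was at the offset in all pups. The part of attached meninges in the members' spread was not tested.

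Across 8 lists of other vascular and barrier genes, 61 of 76 genes were tested. At an unadjusted p of 0.05, 2 were higher and 1 lower on the low protein diet, 0 higher and 1 lower after MAM, and 1 higher and 6 lower after Poly I:C, and 0 passed adjustment in each. These were 4.92%, 1.64% and 11.5% of the 61 genes, against 7.24%, 9.83% and 9.36% of all genes tested. In Low Protein pups Vegfc, a lymphatic VEGF ligand, was 0.0238 ± 0.00348 against 0.0181 ± 0.00264 TPM (SD, n = 6 each), a log2 change of 0.39 (limma adjusted p = 0.636). Slc7a5, a large neutral amino acid carrier, was 4.86 ± 1 against 4.02 ± 0.353 TPM (log2 0.26, adjusted p = 0.67). Sox17, an endothelial transcription factor, had a log2 change of -0.49 (adjusted p = 0.67).

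In Poly I:C pups Cd34, of endothelium and blood progenitors, had a log2 change of 0.39 (limma adjusted p = 0.367). The co-receptor Nrp2 was at -0.38, the tricellular junction genes Lsr and Marveld2 at -0.27 and -0.43, Wnt7a, a neural ligand for barrier formation, at -0.15 (SE 0.07), the pump gene Abcb1b at -0.41, and the secreted factor Egfl7 at -0.35. Marveld2 in MAM pups was at -0.45 (adjusted p = 0.502). The ligand Vegfa was at -0.12, -0.01 and -0.16 in the 3 comparisons and did not pass. Of the endothelial activation list 5 of 7 genes were tested, and of the angiopoietin list 1 of 5 (Angpt2), and none of these passed in any of the 3.

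In MAM pups, where 9.83% of all genes passed the unadjusted threshold, 3 of 9 microglial genes did (Tyrobp 0.29, C1qa 0.39 and C1qb 0.33), and their list summed to 16 to 20.4 TPM against 12.9 to 16.3 in Saline. Of 8 hypoxia-induced genes, Car9 and Bnip3 passed in Low Protein (-0.77 and -0.23) and Poly I:C pups (-0.46 and -0.24), and Adm in MAM pups (0.67), against 7.24%, 9.36% and 9.83% of all genes. None passed adjustment. In each remaining list at most 1 gene passed in a comparison.

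When the mean of 12 other endothelial genes was added to the fit as a covariate, a choice made after the data were seen, Cdh5 was 0.17 (limma unadjusted p = 0.0394) in Low Protein and 0.24 (unadjusted p = 0.00647, adjusted p = 0.257) in Poly I:C pups. Cldn5 was 0.21 (unadjusted p = 0.0248) and Slc2a1 0.15 (unadjusted p = 0.04) in MAM pups. That fit passed 10%, 14.3% and 11.5% of all genes, and no member passed adjustment.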

How the data were processed

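Per the labels and the study's methods, reads were trimmed, aligned to rn6 with STAR 2.4.1d and quantified in Partek Flow, and the authors deposited TPM with an offset of 1e-04. The file holds 17420 genes, and each column sums to 70350.1. No counts were used, so count models were not fitted. The depth was estimated from steps in value times GRCr8 span (15093 genes matched): 49.1% to 54.4% of low values lay within 0.05 of a whole step. Evenly spread values would give 10% for a step fixed in advance. Each pup's step was chosen for a high share, so the 10% is not a test of the steps.

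Genes with a mean of at least 0.01 (12516, all 10 members) were tested on log2 TPM with limma 3.58.1 (R 4.3.3, lmFit and eBayes with trend) over all 24 pups, with Benjamini-Hochberg adjustment. Single members were also tested by two-sided exact permutation (924 splits, smallest p 0.00216). Pups were the replicates. With 2 litters a group, an exact test over litters cannot go below 0.333. The fit was tested on simulated data. No 2 columns were identical. The members, lists and tests were chosen with earlier results of these data known. Named genes were all members, the 10 most correlated genes, and from each other list up to 4 with the lowest p. Alternatives were other filters, pseudocount, scaling, pups in the fit, litter terms, a replicate block, the variance model and leaving out each pup or litter. Added after seeing the data were the endothelial covariate, leaving out pups numbered 3, and pup number as a factor. Figures were drawn with matplotlib 3.10.9.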

Additional observations from a re-analysis of the deposited data

Results flagged for a closer look

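In 2 of 40 gene and group sets, the most extreme pup was farther from the rest than Dixon's 95% value for 6 samples allows, and chance gives about 1 in 20. Kdr was 0.908 TPM in Saline pup 1-3, with the next pup at 0.805. Mfsd2a was 0.94 TPM in Low Protein pup 2-3, with the next pup at 1.23.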

How the results depend on the processing

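Under 46 settings, no member passed an adjusted p of 0.05 in limma, and 1251 values kept their direction and side of the threshold. Many of these could not change direction. With groups of equal size, the filter, litter-term, block and variance-model fits give the same log2 change by construction. So does leaving out a pup or litter of a group that is not compared. The count of 1251 is therefore not a measure of stability. Directions of small changes were unstable: 101 values changed sign, and the cause was not tested. With log2(value + 0.1), Pecam1 and Tie1 in Low Protein became 0.00348 and 0.00151. With median-of-ratios scaling, they became 0.0163 and 0.0196, and in MAM Flt1, Tie1 and Mfsd2a became 0.0163, 0.0208 and 0.0606. With upper-quartile scaling, Mfsd2a in MAM became 0.0391.

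With the replicate block (litter and pup label, 1-1 to 2-3, across groups), 1 member, Slc2a1, passed the F test (unadjusted p = 0.0479 by limma, adjusted p = 0.292), as did 16.9% of all genes, and the counts against saline were unchanged at 0. Over all genes, 6 of 36 correlations of same-numbered pups were above 0.1 (median 0.035), and pups with different numbers were not compared. Whether the numbers pair the samples was therefore not tested. The block lowered the SE of each member against saline, from 0.214 to 0.148 for Tie1 and from 0.134 to 0.0995 for Slc2a1. With pup number within the litter (1 to 3) as a factor, 1 member, Slc2a1, passed the F test (unadjusted p = 0.0369 by limma, adjusted p = 0.285), as did 16.2% of all genes. With the endothelial covariate, 1 member passed on the low protein diet, 2 after MAM, 1 after Poly I:C and 2 in the F test, Slc2a1 (unadjusted p = 0.0012 by limma, adjusted p = 0.0882) and Cdh5 (unadjusted p = 0.0349, adjusted p = 0.243), which 17.8% of all genes passed. Signs turned for Pecam1 and Tie1 in Low Protein (0.0671, 0.131), for Cdh5, Flt1, Tie1 and Mfsd2a in MAM (0.0883, 0.0344, 0.0895, 0.018), and for Cldn5 in Poly I:C (0.00864). Without the pups numbered 3, Low Protein values were 0.187 for Pecam1, 0.166 for Kdr, 0.166 for Flt1, 0.187 for Tie1, 0.00683 for Mfsd2a and 0.00118 for Abcb1a. Flt1 was then 0.129 in MAM, and Poly I:C values were 0.0211 for Cldn5, 0.13 for Kdr, 0.0925 for Flt1 and 2.64e-05 for Mfsd2a.

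Leaving out 1 pup or litter in turn, the ranges of values that crossed 0 were as follows. Low Protein values ran from -0.115 to 0.176 for Cldn5, -0.0778 to 0.106 for Pecam1, -0.195 to 0.21 for Cdh5, -0.254 to 0.0053 for Kdr, -0.236 to 0.00512 for Flt1, -0.163 to 0.168 for Tek, -0.15 to 0.146 for Tie1 and -0.134 to 0.00112 for Mfsd2a. MAM values ran from -0.0462 to 0.166 for Pecam1, -0.15 to 0.0255 for Cdh5, -0.168 to 0.0734 for Flt1, -0.0952 to 0.022 for Tie1, -0.0376 to 0.0289 for Mfsd2a and -0.0526 to 0.197 for Slc2a1. Poly I:C values ran from -0.228 (without litter 2) to 0.211 (without litter 1) for Cldn5, -0.221 to 0.0572 for Pecam1, -0.143 to 0.542 for Cdh5, -0.317 to 0.0891 for Kdr, -0.21 to 0.345 for Tek, -0.247 to 0.453 for Tie1 and -0.0927 to 0.0781 for Mfsd2a. Of ranges on 1 side of 0, Slc2a1 ran from -0.26 to -0.115 (without pup 1-3) in Low Protein and from -0.246 to -0.0479 (without pup 1-3) in Poly I:C, Kdr from -0.309 to -0.135 (without MAM litter 1) and Cldn5 from 0.053 (without Saline litter 1) to 0.204 (without Saline litter 2) in MAM. Tek in MAM ran from -0.173 to -0.0689 and Flt1 in Poly I:C from -0.266 to -0.025, and Abcb1a from -0.173 to -0.0131 in Low Protein, -0.251 to -0.121 in MAM and -0.302 to -0.0419 in Poly I:C. No member passed an unadjusted p of 0.05 in these fits against saline. With 6 pups from 2 litters a group, changes inside the intervals given cannot be told from 0.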
